A study of Rattus norvegicus with 16 samples.

Results

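A group of 10 genes of the node of Ranvier, the paranode and axoglial adhesion were followed in rat Schwann cells and whole sciatic nerve through the first week after nerve crush. They were a set list of symbols, Nfasc, Gldn, Nrcam, Ank3, Epb41l3, Cadm4, Cntn2, Cntnap2, Ezr and Slc9a3r1, and all 10 were found among the 31038 genes of the deposited tables. The study sequenced 16 libraries, 2 for each of 8 groups. Schwann cells had been acutely purified by immunopanning on an O4 antibody from uncrushed rat sciatic nerve and from crushed nerve 3, 5 and 7 days after the injury, and whole nerve was taken at the same 4 times without dissociation. Only the segment distal to the crush was used, or the matching segment of uncrushed nerve. All groups carry the age postnatal day 18 in their labels, which name no other treatment, strain or allele. By the study's methods the operated rats were under isoflurane and received carprofen, an analgesic.

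Some limits of these groups bear on every comparison. Each sample pooled at least 10 nerves, the labels do not say that the 2 libraries of a group came from separate animals, and p-values therefore measure the spread between these libraries, which may be technical. No sham-operated group was among them, so the effects of crush and of surgery cannot be told apart. The study's methods place the surgery at postnatal day 18 and the labels give that age for every group, so rats sampled on later days after crush may have been older, and age and day after crush cannot be told apart. Levels are given as FPKM, fragments scaled to the length of the transcript and the size of the library. In bulk RNA, fewer cells of a type and less RNA per cell cannot be told apart. Only the Schwann cells were enzymatically dissociated and panned. Differences between the tissues, and between their responses to crush, cannot be told apart from effects of that handling. The study reports a comparison with dissociated nerve, which was not used here.

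At a node of Ranvier, the axon membrane is bare of myelin and sodium channels are held in a dense cluster. In peripheral nerve, Schwann cell microvilli reach over this gap and present gliomedin, and the NrCAM they shed joins it in binding axonal neurofascin and so gathers the channels, which ankyrin-G holds from the inside. On either side, paranodal loops of the Schwann cell are sealed to the axon through glial neurofascin, beyond them the juxtaparanode holds potassium channels with Caspr2 and TAG-1, and along the internode Necl proteins join the myelin to the axon. Degeneration of the axon after crush removes the partner that organizes all of these domains.

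By role, the microvillar and nodal genes were Gldn (gliomedin), Nrcam (NrCAM), Ezr (ezrin, a linker of membrane and actin in microvilli) and Slc9a3r1 (EBP50, a scaffold that binds ezrin). Nfasc encodes the neurofascins, of which 1 form is glial and paranodal and another is axonal and nodal, and the gene-level values do not separate them. Ank3 (ankyrin-G) and Epb41l3 (protein 4.1B) are membrane scaffolds, Cntnap2 (Caspr2) and Cntn2 (TAG-1) are juxtaparanodal adhesion molecules, and Cadm4 (Necl-4) is the Schwann cell side of the internodal contact.

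Upstream sequences were read from RefSeq for the build GRCr8, which is not the build the reads were mapped to. Of the 10 genes, 8 had an entry, with 9 start sites in all, and Nrcam and Cntnap2 had none. The 250 bases before the start are shown for 4 genes, Gldn because it fell most in Schwann cells at day 3, and Cadm4, Ezr and Slc9a3r1 because they were the genes whose windows held the GC box, and they moved in different ways. Capitals mark matches, on either strand, to the GC box (GGGCGG or CCGCCC), the CCAAT box (CCAAT or ATTGG) and the SOX core (ACAAT or ATTGT).
Gldn, chr8:63575020-63575269, plus strand: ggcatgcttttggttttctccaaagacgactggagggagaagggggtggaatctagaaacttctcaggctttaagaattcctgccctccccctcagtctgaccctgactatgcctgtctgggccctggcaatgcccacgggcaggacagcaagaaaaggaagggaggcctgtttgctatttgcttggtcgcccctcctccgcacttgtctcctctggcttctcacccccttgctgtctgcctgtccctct
Cadm4, chr1:89202839-89203088, plus strand: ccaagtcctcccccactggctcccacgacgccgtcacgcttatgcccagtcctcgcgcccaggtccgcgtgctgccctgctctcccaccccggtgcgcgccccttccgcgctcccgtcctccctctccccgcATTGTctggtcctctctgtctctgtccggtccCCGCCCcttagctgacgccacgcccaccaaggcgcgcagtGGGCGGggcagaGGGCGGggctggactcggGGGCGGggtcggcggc
Ezr, chr1:49416574-49416823, minus strand: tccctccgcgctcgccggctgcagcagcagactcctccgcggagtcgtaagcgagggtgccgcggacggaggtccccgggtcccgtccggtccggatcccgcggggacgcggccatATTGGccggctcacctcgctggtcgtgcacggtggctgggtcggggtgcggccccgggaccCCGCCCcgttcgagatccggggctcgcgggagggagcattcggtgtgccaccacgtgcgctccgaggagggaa
Slc9a3r1, listed there as Nherf1, chr10:100901915-100902164, plus strand: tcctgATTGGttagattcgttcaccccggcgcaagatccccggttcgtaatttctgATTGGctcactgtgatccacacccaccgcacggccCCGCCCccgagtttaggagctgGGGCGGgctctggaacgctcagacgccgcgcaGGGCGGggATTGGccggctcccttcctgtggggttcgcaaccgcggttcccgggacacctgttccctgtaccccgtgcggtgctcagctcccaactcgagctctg
The Gldn window held none of these letters, Ezr held 1 GC box and 1 CCAAT box, Slc9a3r1 held 3 of each, and Cadm4 held 4 GC boxes and 1 SOX core. Of the windows not shown, those of Nfasc held 1 SOX core each and 1 of them also held 1 CCAAT box. The windows of Ank3, Epb41l3 and Cntn2 held none of these letters. Among 33469 RefSeq windows of the same length, 30.5% held the GC box, 34% the CCAAT box and 30% the SOX core. The AP-1 letters TGANTCA stood in 6.34% of all windows and in none of the 9 read here, which says only that these letters are not in those windows. GC content was 56.4% in the Gldn window, 64.8% in that of Slc9a3r1, 74% in that of Cadm4 and 74.4% in that of Ezr, beside a median of 51.2% over all windows. A match of letters describes the sequence and was not tested as a binding site.

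Depth, taken as the sum of expected counts, lay between 10555067 and 27562637 per library. The labels were checked against markers. The summed FPKM of 8 Schwann cell genes was 9200 and 9415 in uncrushed Schwann cells, below the 18102 and 21593 of uncrushed whole nerve, and after crush it was 4099 to 6861 in Schwann cells and 2387 to 4755 in whole nerve. By contrast, 8 macrophage genes summed to 2.76 to 13.2 in Schwann cells and to 138 to 620 in whole nerve. The 6 endothelial genes summed to 1.16 to 6.09 FPKM in Schwann cells and 87.6 to 124 in whole nerve. The 6 fibroblast genes summed to 1325 and 1350 FPKM in uncrushed Schwann cells and 188 to 344 in crushed ones, against 6333 to 7889 in whole nerve. Most of that fall was in Col3a1, at 1023.47 and 1014.66 FPKM uncrushed and 20.30 to 125.49 after crush, and of the 6 genes 2 were called lower at day 3, 3 lower and 1 higher at day 5, and 1 lower at day 7. Of the 4 perineurial genes, 3 were called as less abundant in the purified cells before crush and on each day after it, Cldn1 being at 0.28 to 1.35 FPKM against 81.22 to 194.95 and Msln at or below 0.11, while Itgb4 made up most of their sum of 58.0 to 119 in Schwann cells. The 9 neuronal genes summed to 29.5 and 46.0 FPKM in uncrushed Schwann cells and 120 to 279 after crush, mostly through the neurofilament genes Nefl and Nefm. Stmn2 went the other way, from 1.20 and 1.19 FPKM to 0.06 to 0.38, Snap25 was at or below 0.06 FPKM and Rbfox3 at 0 in every crushed Schwann cell library, and of 5 genes tested 3 were called higher and 1 lower at days 3 and 5, and 2 higher and 2 lower at day 7. Replicate 2 of uncrushed whole nerve held skeletal muscle RNA (Ckm at 79.5 FPKM, beside 4.97 in replicate 1), and replicate 2 of Schwann cells at day 3 held more Ptprc (1.29 against 0.18 FPKM) and Cdh5 (1.42 against 0.13 FPKM) than replicate 1. The part these differences had in the results was not tested beyond leaving each library out in turn.

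In Schwann cells, 5 of the 10 genes fell at day 3 (Gldn, Epb41l3, Nfasc, Ank3 and Slc9a3r1) and 2 rose (Nrcam and Ezr), by edgeR's quasi-likelihood test at an adjusted p under 0.05. Over all genes tested at that day, 25.7% were lower and 26.9% higher. The same 5 genes were lower at days 5 and 7 as well, beside 25.6% and 21.9% of all genes, in comparisons that share the uncrushed libraries. Nrcam and Ezr stayed higher on both days, joined by Cadm4 at day 5 and by Cntnap2 at days 5 and 7, which made 4 higher genes at day 5 and 3 at day 7, beside 29.0% and 25.0% of all genes. The list was not tested as a set. Their median log2 change was -0.58, -0.63 and -0.72 at days 3, 5 and 7, beside 0.00, 0.06 and 0.06 over all genes.

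**Figure D1:**
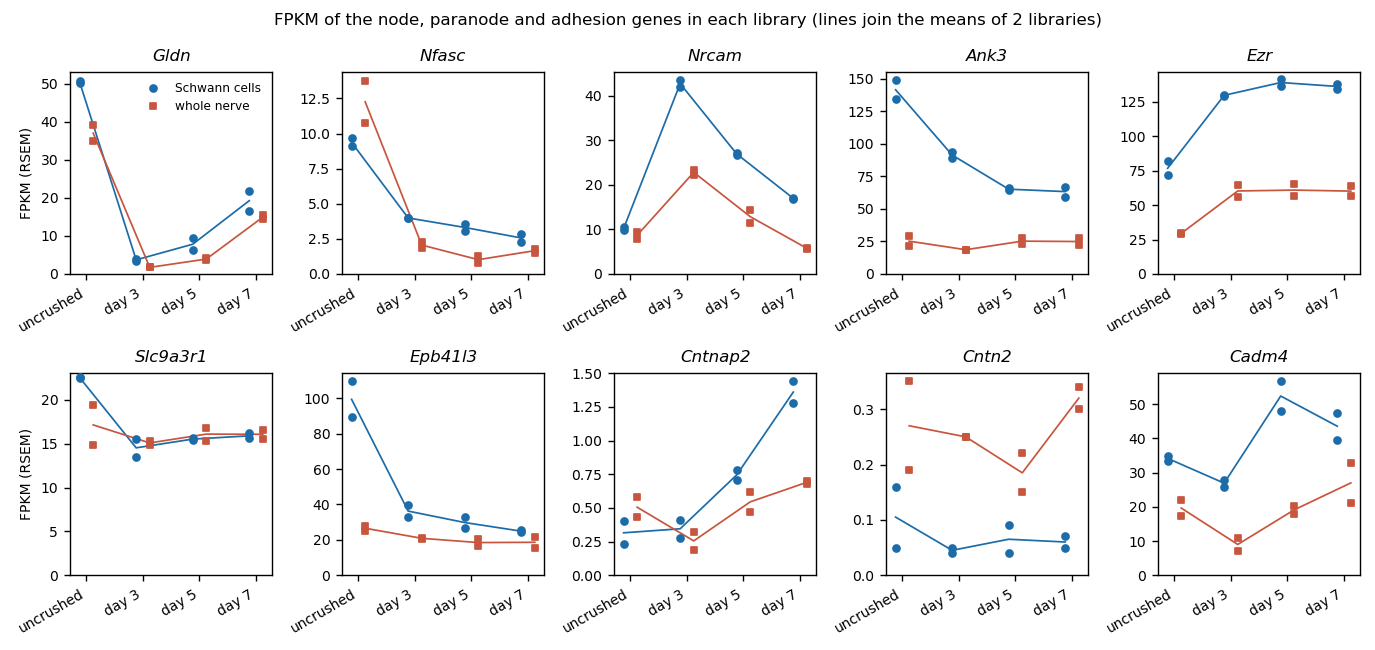
FPKM of each of the 10 genes (vertical axes, 1 scale per gene) in uncrushed nerve and 3, 5 and 7 days after crush. Each point is 1 library, circles are Schwann cells, squares are whole nerve, and lines join the means of the 2 libraries. Gldn drops from about 50.4 to 3.71 FPKM in Schwann cells and climbs back to 19.2 by day 7, Nrcam peaks at day 3, and Nfasc, Ank3 and Epb41l3 end the week below their uncrushed level in Schwann cells.

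Gldn had the deepest loss and the clearest return. The uncrushed Schwann cell libraries stood at 50.14 and 50.66 FPKM, and day 3 at 3.90 and 3.51. Day 5 held 6.24 and 9.38 FPKM, and day 7 held 21.86 and 16.62. No 2 of these 4 groups overlapped, and the order from lowest to highest was day 3, day 5, day 7 and uncrushed. The mean was 7.35% of the uncrushed level at day 3, 15.5% at day 5 and 38.2% at day 7. On the TMM scale of edgeR the change at day 3 was -3.72 (SE 0.200, a 13.2-fold fall, adjusted p = 4.32e-07) and at day 7 it was -1.43 (SE 0.178, adjusted p = 0.000161), and day 7 stood 2.29 above day 3 (SE 0.196, edgeR adjusted p = 6.74e-05).

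In whole nerve gliomedin was also lowest at day 3. The uncrushed libraries held 34.83 and 39.11 FPKM, those of day 3 held 1.72 and 1.75, those of day 5 held 3.68 and 4.15, and those of day 7 held 14.33 and 15.51. Again no groups overlapped within the tissue. The fall at day 3 was 28.2-fold (log2 -4.82, SE 0.131, edgeR adjusted p = 2.78e-09), and by day 7 the mean was back at 40.4% of the uncrushed FPKM.

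Nrcam, whose product is shed from microvilli and binds gliomedin, went the other way. Schwann cells held 10.46 and 9.95 FPKM before crush and 41.97 and 43.57 at day 3, a 3.93-fold rise (log2 1.97, SE 0.0918, edgeR adjusted p = 1.99e-07). The level then came down to 26.68 and 27.27 FPKM at day 5 and to 17.06 and 16.95 at day 7, still 1.57-fold above uncrushed. Every day stood apart from every other, and the drop from day 3 to day 7 was -1.32 on the log2 scale (SE 0.0896, edgeR adjusted p = 1.89e-05). Gldn and Nrcam thus moved oppositely at both ends of the week in Schwann cells, with Gldn lowest and Nrcam highest at day 3.

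In whole nerve the rise of Nrcam was briefer. The libraries held 7.89 and 9.53 FPKM uncrushed, 22.29 and 23.40 at day 3, 11.47 and 14.27 at day 5, then 5.70 and 5.85 at day 7. It was 1.85-fold higher at day 3 (log2 0.88, SE 0.121, edgeR adjusted p = 0.000188) and 1.91-fold lower at day 7 (log2 -0.94, SE 0.125, edgeR adjusted p = 0.000272). At day 5 the difference of 0.12 was not called, with an interval of 1.96 standard errors from -0.12 to 0.36. Both day 7 libraries lay below both uncrushed ones, whereas in Schwann cells both lay above.

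Ezrin rose early and stayed up. Schwann cells held 81.68 and 71.60 FPKM before crush, 130 and 129.12 at day 3, 136.57 and 141.13 at day 5, then 138.05 and 133.99 at day 7. All 6 crushed libraries exceeded both uncrushed ones. The changes were 0.81, 0.83 and 0.79 on the log2 scale at days 3, 5 and 7 (SE 0.0904 to 0.0905, edgeR adjusted p = 5.43e-05, 4.89e-05 and 9.54e-05). Between day 3 and day 7 the difference was -0.02, with an interval from -0.20 to 0.15. In a table of Cufflinks FPKM whose columns name days but no tissue, taken here as Schwann cells from the study's module analysis, the ratios were 1.16, 1.51 and 1.30, or 0.48, 0.43 and 0.47 relative to the median gene of that table. In whole nerve Ezr went from 29.15 and 29.67 FPKM to between 55.63 and 65.29 in the 6 crushed libraries, and its log2 changes of 0.62, 0.64 and 0.62 were called on all 3 days (edgeR adjusted p = 0.000942, 0.00105 and 0.00159).

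Slc9a3r1, the scaffold that binds ezrin, did not follow it. In Schwann cells it fell from 22.48 and 22.62 FPKM to 13.54 and 15.52 at day 3, and it lay between 15.44 and 16.17 at days 5 and 7. The crushed libraries all stood below the uncrushed ones, by 0.58, 0.57 and 0.55 on the log2 scale (edgeR adjusted p = 0.00343, 0.00379 and 0.00583). Whole nerve gave an overlapping picture in FPKM, 14.82 and 19.47 uncrushed and 14.88 to 16.83 in the crushed libraries. Its changes on the TMM scale, -0.58, -0.49 and -0.50, passed the test on each day (edgeR adjusted p = 0.00863, 0.0241 and 0.0296). These calls in whole nerve rest on single libraries. Without uncrushed replicate 2, the library with more Ckm, the changes were -0.37, -0.28 and -0.29 and the calls were lost. The call was also lost without day 3 replicate 1 (-0.57), without day 5 replicate 1 (-0.55) or 2 (-0.43), and without day 7 replicate 1 (-0.43) or 2 (-0.53). At day 7 DESeq2 (-0.49) and a fit of the 2 groups alone (-0.50) did not call it either.

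The FPKM and TMM scales differed in whole nerve. In both tissues the summed FPKM of the 8 Schwann cell genes, myelin genes among them, was lower in every crushed library than in the uncrushed ones. Its part in the difference of scales was not tested. The median gene had a log2 ratio of mean FPKM of 0.44, 0.43 and 0.41 at days 3, 5 and 7 against uncrushed whole nerve, and of 0.06, 0.19 and 0.17 in Schwann cells, while on the TMM scale it was between -0.01 and 0.06 in all 6 comparisons. Taken relative to that median, the FPKM of Slc9a3r1 in whole nerve fell by 0.62, 0.52 and 0.51, and that of Ezr was 0.60, 0.62 and 0.62 higher. All changes called in whole nerve had the same sign on the plain FPKM scale. Among those not called, Cntn2 at day 3 went from -0.90 to -0.11, Cadm4 at day 5 from -0.44 to -0.04 and Nrcam at day 5 from 0.12 to 0.56, and Ank3 at day 5 turned from -0.40 to 0.0011 and at day 7 went from -0.42 to -0.02, Cntnap2 at day 5 turned from -0.28 to 0.11 and Cntn2 at day 7 from -0.19 to 0.25. The other 3 moved the same way, Cntn2 at day 5 from -0.93 to -0.55, Cadm4 at day 7 from 0.05 to 0.46 and Cntnap2 at day 7 from 0.06 to 0.45.

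Nfasc fell further with each sampled day in purified Schwann cells. The libraries held 9.09 and 9.65 FPKM uncrushed, 3.98 and 4.0 at day 3, 3.09 and 3.54 at day 5, then 2.85 and 2.28 at day 7, with no overlap between days. The changes were -1.17, -1.52 and -1.90 on the log2 scale (SE 0.129 to 0.134, edgeR adjusted p = 4.78e-05, 1.03e-05 and 4.57e-06), and day 7 was lower than day 3 by -0.73 (SE 0.132, adjusted p = 0.00406). In whole nerve it went from 10.77 and 13.76 FPKM to 2.30 and 1.82 at day 3, 0.76 and 1.28 at day 5, then 1.51 and 1.81 at day 7. Its largest fall there was 15.7-fold at day 5 (log2 -3.98, SE 0.231, edgeR adjusted p = 5.21e-07).

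Ank3 and Epb41l3 were among the higher genes of the list in uncrushed Schwann cells and both declined. Ank3 held 148.86 and 134.05 FPKM uncrushed, 93.91 and 88.75 at day 3, 66.03 and 64.22 at day 5, then 59.48 and 67.06 at day 7. Days 5 and 7 overlapped, and every crushed library stood below the uncrushed ones. The mean fell to 64.6%, 46.0% and 44.7% of the uncrushed level, with log2 changes of -0.58, -1.14 and -1.20 (edgeR adjusted p = 0.000823, 1.09e-05 and 1.17e-05). In whole nerve Ank3 held 21.56 and 28.82 FPKM uncrushed and 18.47 to 27.60 after crush, groups that overlapped at days 5 and 7. The log2 change of -0.84 at day 3 was called (SE 0.149, edgeR adjusted p = 0.00104), and those of -0.40 and -0.42 at days 5 and 7 were not (adjusted p = 0.0548 and 0.0537), although both were called by DESeq2, with a replicate block and with either other filter. They were also called without uncrushed replicate 1 (-0.59 and -0.62), and that of day 7 without day 7 replicate 2 (-0.57). Over all fits with a single library left out, the values ran from -0.59 to -0.17 at day 5 and from -0.62 to -0.19 at day 7. In FPKM the means at days 5 and 7 were 100% and 98.9% of uncrushed.

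Epb41l3, a cytoskeletal adaptor of paranode and internode, went from 109.71 and 89.22 FPKM in uncrushed Schwann cells to 39.57 and 32.98 at day 3. It held 33.12 and 26.48 FPKM at day 5 and 24.40 and 25.42 at day 7. Neighbouring days overlapped only between 3 and 5, and all crushed libraries stood far below the uncrushed pair. The changes were -1.41, -1.74 and -2.05 (SE 0.139 to 0.142, edgeR adjusted p = 2.36e-05, 6.93e-06 and 4.20e-06). Whole nerve, with 25.08 and 28.07 FPKM uncrushed and 15.63 to 21.63 after crush, showed smaller falls of -0.77, -0.92 and -0.93 (SE 0.151 to 0.153, edgeR adjusted p = 0.00198, 0.000883 and 0.00105).

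The juxtaparanodal pair was near the floor of detection. In Schwann cells the uncrushed libraries had 24 and 38 counts of Cntnap2, those of day 3 had 49 and 58, those of day 5 had 109 and 88, and those of day 7 had 193 and 119. In FPKM this was 0.23 and 0.40, then 0.41 and 0.28, then 0.78 and 0.71, then 1.44 and 1.28. The uncrushed and day 3 libraries overlapped, and days 5 and 7 stood above both. The log2 changes were 0.17 at day 3 (not called, interval -0.47 to 0.81), 1.22 at day 5 (SE 0.313, edgeR adjusted p = 0.00848) and 2.08 at day 7 (SE 0.310, edgeR adjusted p = 0.000483). Without uncrushed replicate 1 the value at day 5 was 0.84 and lost its call. In whole nerve Cntnap2 was between 0.19 and 0.70 FPKM, fell by 1.40 at day 3 (SE 0.317, edgeR adjusted p = 0.00472), and was not called at days 5 and 7.

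Cntn2 had 6 to 19 counts in every Schwann cell library and 19 to 50 in whole nerve. At this depth none of its changes after crush was called in either tissue. In whole nerve those at days 3 and 5, -0.90 and -0.93, were called without uncrushed replicate 2 (-1.22 and -1.25), and with every library kept under a filter of at least 10 counts in each (-0.92 and -0.95). Over all fits with a single library left out, they ran from -1.22 to -0.40 and from -1.25 to -0.42. In Schwann cells the log2 change at day 3 was -1.14, with an interval from -2.44 to 0.17, so these counts leave its direction undetermined. With single libraries left out it ran from -1.70 to -0.22.

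Cadm4 dipped and then exceeded its uncrushed level in Schwann cells. The libraries held 34.83 and 33.51 FPKM uncrushed, 27.93 and 25.92 at day 3, 56.68 and 48.12 at day 5, then 39.61 and 47.53 at day 7, and the 4 groups did not overlap. The rise at day 5 was called (log2 0.58, SE 0.136, edgeR adjusted p = 0.00515), while the changes of -0.30 at day 3 and 0.30 at day 7 were not (adjusted p = 0.0927 and 0.0989). At day 3 the fall was called when upper quartile scaling replaced TMM (-0.38). The Cufflinks FPKM taken as Schwann cells gave log2 ratios of 0.07 at day 3 and 1.25 at day 5. The median gene of that table was at 0.68 and 1.07, and relative to it Cadm4 was at -0.60 and 0.18. In whole nerve Cadm4 held 17.43 and 21.87 FPKM uncrushed, 7.13 and 10.87 at day 3, 18.01 and 20.26 at day 5, then 21.23 and 32.76 at day 7, and only the fall at day 3 was called (log2 -1.52, SE 0.249, edgeR adjusted p = 0.000617).

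**Figure D2:**
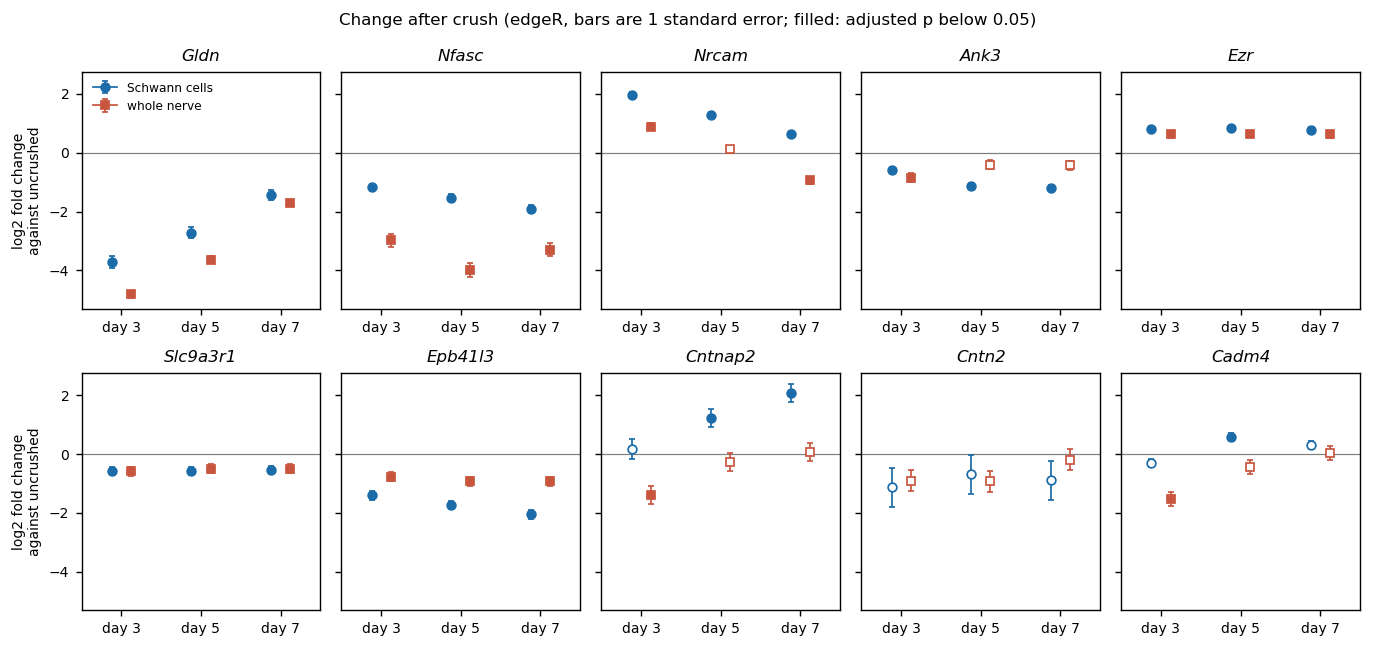
Log2 change against uncrushed (vertical axis, edgeR on the TMM scale) at days 3, 5 and 7 after crush for each gene. Circles are Schwann cells, squares are whole nerve, bars are 1 standard error of the fit to 2 libraries per group, and filled symbols passed an adjusted p of 0.05. Ezr and Slc9a3r1 hold level across the days, Gldn climbs from -3.72 toward 0 in Schwann cells, and Epb41l3 and Nfasc in Schwann cells slope down.

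Counted over the list, whole nerve had 7 lower and 2 higher genes at day 3, beside 22.5% and 23.1% of all genes. At day 5 it gave 4 lower and 1 higher, beside 19.5% and 18.9%, and at day 7 it gave 5 lower and 1 higher, beside 15.9% and 15.4%. Gldn, Nfasc, Epb41l3 and Slc9a3r1 were lower and Ezr was higher on all 3 days. The direction of every call shared between the tissues at the same day was the same except for Nrcam at day 7, which was higher in Schwann cells and lower in whole nerve.

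Between day 3 and day 7 the list split. These contrasts leave out the uncrushed libraries, which still entered the filter, scaling and spread of the fit. In Schwann cells 3 genes were higher at day 7 (Gldn, Cntnap2 and Cadm4) and 4 lower (Nrcam, Nfasc, Epb41l3 and Ank3), beside 10.2% and 10.7% of all genes. In whole nerve Gldn, Cntnap2 and Cadm4 were again higher, by 3.10, 1.46 and 1.58 on the log2 scale (edgeR adjusted p = 4.18e-07, 0.00785 and 0.0014), beside 9.85% of all genes. Nrcam was lower there by -1.82, and it was the 1 gene called in that direction, beside 11.4% of all genes. Ank3, at 0.42 and not called, was called as higher at day 7 under all 7 alternatives that kept every library of both days, 0.40 to 0.46, and each of these called 5 genes rather than 4. With single libraries left out Ank3 ran from 0.27 to 0.57. Some of the calls above were lost when 1 library was left out. In Schwann cells Cadm4 (0.60) lost its call without day 3 replicate 1 (0.65) or 2 (0.56) or day 7 replicate 2 (0.47), and Epb41l3 (-0.64) without day 3 replicate 1 (-0.50) or day 7 replicate 1 (-0.62). In whole nerve Cntnap2 lost its call without day 3 replicate 2 (1.12).

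Purified cells were also set against whole nerve at the same time, a comparison in which cell type and dissociation cannot be told apart. In uncrushed nerve Ank3, Epb41l3 and Ezr were higher in Schwann cells, by 2.18, 1.62 and 1.07 on the log2 scale (edgeR adjusted p = 8.77e-09, 7.66e-07 and 4.88e-07), beside 29.1% of all genes. Nfasc, Cntnap2 and Cntn2 were lower, by -0.69, -0.99 and -1.76 (edgeR adjusted p = 0.00481, 0.0202 and 0.00561), beside 35.3%. Gldn and Nrcam differed by 0.14 and -0.01 on the TMM scale, with intervals from -0.16 to 0.44 and from -0.23 to 0.20. In FPKM both were higher in Schwann cells without overlap. Gldn held 50.14 and 50.66 against 34.83 and 39.11, and Nrcam 10.46 and 9.95 against 7.89 and 9.53. The 3 lower genes lost their calls when some libraries were left out. For Nfasc this was whole nerve replicate 2 (-0.50), for Cntnap2 it was Schwann cell replicate 1 (-0.61) or whole nerve replicate 2 (-0.78), and for Cntn2 it was Schwann cell replicate 2 (-1.24) or whole nerve replicate 1 (-1.27), while Cntn2 reached -2.68 without Schwann cell replicate 1. Cadm4, at 0.50 and not called, ran from 0.33 to 0.66 with single libraries left out. It was called without whole nerve replicate 2 (0.66) and also with upper quartile scaling (0.56), either other filter, a replicate block and a fit of the 2 groups alone. The last fit did not call Cntnap2 (-0.98).

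After crush more of the list was higher in the purified cells. At day 3, 7 genes were higher in Schwann cells and 1 was lower, beside 24.5% and 32.8% of all genes. The same counts stood at day 5, beside 23.2% and 28.4%, and at day 7 they were 6 and 1, beside 22.4% and 28.7%. Ank3, Ezr, Nrcam, Nfasc and Cadm4 were higher on all 3 days, and Cntn2 was the lower gene each time. Nfasc turned from lower to higher, standing 1.01, 1.64 and 0.58 above whole nerve at days 3, 5 and 7 (edgeR adjusted p = 0.000514, 1.45e-05 and 0.0298). On the TMM scale Slc9a3r1 did not differ beyond its error at any time, with values between -0.11 and 0.09. In FPKM its uncrushed libraries stood apart, at 22.48 and 22.62 in Schwann cells and 14.82 and 19.47 in whole nerve. At day 7 the calls of Nfasc, Cadm4 and Cntnap2 were the less secure. Nfasc lost its call without Schwann cell replicate 1 (0.39) or whole nerve replicate 1 (0.47), Cadm4 without Schwann cell replicate 2 (0.50) or whole nerve replicate 1 (0.34), and Cntnap2 (0.92) without Schwann cell replicate 1 (0.82) or whole nerve replicate 1 (0.94) or 2 (0.89). Epb41l3 (0.39) and Gldn (0.31), not called at day 7, were called with upper quartile scaling (0.49 and 0.42), Epb41l3 also without a filter on low counts (0.37) or without whole nerve replicate 2 (0.65), and Gldn without Schwann cell replicate 2 (0.50). With single libraries left out Epb41l3 ran from 0.17 to 0.65 and Gldn from 0.09 to 0.50. At day 5 Cntn2 (-1.66) lost its call without replicate 1 of either tissue (-1.23 and -1.37) and reached -2.25 without Schwann cell replicate 2.

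**Figure D3:**
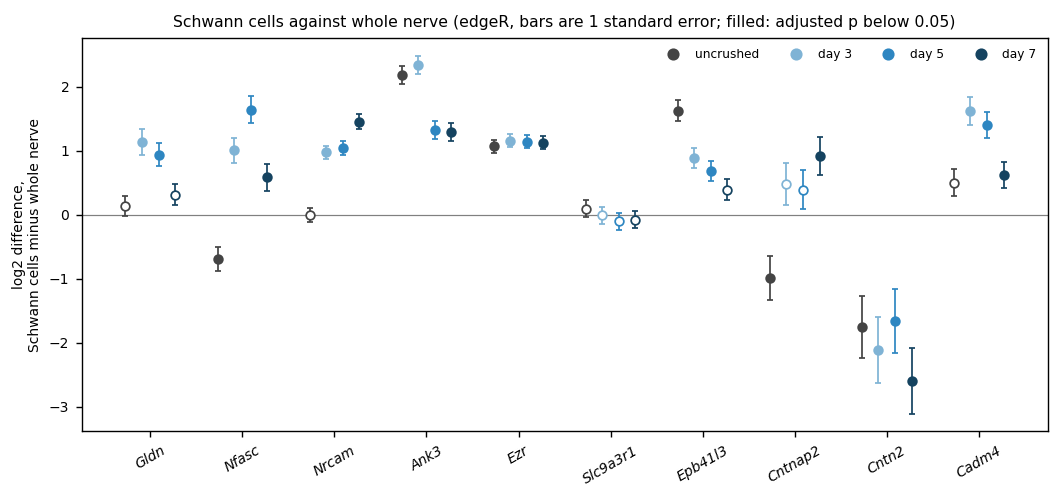
Log2 difference of Schwann cells minus whole nerve (vertical axis, edgeR fit of all 16 libraries) for each gene, uncrushed and at days 3, 5 and 7. Points above 0 are higher in Schwann cells, bars are 1 standard error, and filled points passed an adjusted p of 0.05. Ezr stays near 1.1 at all times, Nfasc crosses from below 0 to above it, Epb41l3 slides from 1.62 to 0.39, and Cntn2 is below 0 throughout.

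Whether the response to crush differed between the tissues was tested as an interaction. At day 3, 6 genes were called, 5 higher and 1 lower in Schwann cells relative to whole nerve, beside 12.3% and 13.7% of all genes. At day 5 there were 5 higher and 2 lower, beside 12.6% and 14.9%, and at day 7 there were 3 and 2, beside 11.6% and 14.4%. Nfasc fell less in Schwann cells than in whole nerve on every day, by 1.70, 2.33 and 1.28 on the log2 scale (edgeR adjusted p = 0.000322, 3.02e-05 and 0.00379), and the change of Nrcam was higher in Schwann cells by 0.98, 1.05 and 1.47 (edgeR adjusted p = 0.000251, 0.000157 and 1.06e-05). Gldn fell less in Schwann cells at days 3 and 5, by 0.99 and 0.80 (edgeR adjusted p = 0.00959 and 0.0213), and at day 7 the interaction of 0.17 was not called. The call for Gldn at day 5 was lost without uncrushed Schwann cell replicate 1 (0.77), uncrushed whole nerve replicate 2 (0.72), day 5 Schwann cell replicate 2 (0.50) or day 5 whole nerve replicate 1 (0.72). Epb41l3 fell more in Schwann cells, by -0.74, -0.94 and -1.23, and Ank3 did so at days 5 and 7, by -0.86 and -0.89. With single libraries left out the day 3 value of Epb41l3 ran from -0.87 to -0.61, and some of these fits lost its call. The response of Ezr was not shown to differ, since its interactions of 0.08, 0.07 and 0.05 had intervals within -0.23 and 0.36. Over the same days the macrophage list in whole nerve went from 138 and 154 FPKM to between 352 and 620 and stayed at or below 13.2 in Schwann cells. The part of other cells and of dissociation in these differences was not tested.

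Other genes of the same membrane domains were counted from lists that left out these 10. In Schwann cells 26.9% of all genes were higher and 25.7% lower at day 3, at day 5 these shares were 29.0% and 25.6%, and at day 7 they were 25.0% and 21.9%. The microvillar counts at day 3 and the juxtaparanodal ones at day 3 are near these shares. Of the node list, 6 of 11 genes could be tested in Schwann cells, and 2 rose and 3 fell at day 3, 1 rose and 4 fell at day 5, and 1 rose and 5 fell at day 7. Dag1, a dystroglycan gene, rose from 328.45 and 325.25 FPKM to 591.99 and 636.50 (log2 0.96, SE 0.0932, edgeR adjusted p = 2.08e-05), and Utrn, which encodes utrophin, fell from 182.37 and 169.17 to 76.66 and 71.62 (log2 -1.28, edgeR adjusted p = 3.45e-06). Among the 6 microvillar genes, 2 rose and 1 fell at day 3, 2 rose and none fell at day 5, then 1 rose and none fell at day 7. Msn, which encodes moesin and belongs to the same family as ezrin, rose from 109.00 and 89.21 FPKM to 195.52 and 202.01 at day 3 (log2 1.06, SE 0.107, edgeR adjusted p = 2.75e-05), but by day 7 its difference from uncrushed was 0.03, whereas Ezr was still at 0.79. Slc9a3r2, a close relative of Slc9a3r1, fell by 0.77 at day 3 (edgeR adjusted p = 0.0151).

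The paranodal list had 2 genes higher and 8 lower of 11 tested at day 3, 2 and 6 at day 5, then 2 and 7 at day 7, with medians of -0.90, -0.83 and -0.64. Cldn19, a claudin of the paranodal loops, dropped from 226.22 and 243.30 FPKM to 6.13 and 6.51 at day 3 (log2 -5.45, edgeR adjusted p = 5.36e-08) and was lower by only 0.50 at day 7 (log2 -0.50, adjusted p = 0.0198), when Gldn was at -1.43. Epb41l1, a relative of Epb41l3, rose by 0.89 at day 3 (SE 0.113, edgeR adjusted p = 0.000126) while Epb41l3 fell. Cntn1, which encodes the contactin of the paranodal complex and is mostly axonal, had 13 and 16 counts in uncrushed Schwann cells and 0 in both day 3 libraries, at least 7.35-fold lower against a floor of 3 counts.

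Of 10 juxtaparanodal genes, 2 rose (Lgi2 and Lgi3) and 3 fell (Kcna1, Kcna2 and Adam23) at day 3, 4 rose and 4 fell at day 5, then 5 rose and 4 fell at day 7. Kcna2, a potassium channel subunit, went from 62.26 and 65.28 FPKM to 1.15 and 1.05 at day 3 (log2 -5.99, SE 0.192, edgeR adjusted p = 4.97e-08) and was still lower by -1.78 at day 7. Lgi2, called as higher at day 3, had 0 and 1 counts uncrushed and 24 and 38 at day 3, and no fold is given for it. The internodal list had 10 of 11 genes lower at days 3 and 5 and 8 lower at day 7, with medians of -1.76, -2.81 and -1.52 beside 0.00, 0.06 and 0.06 over all genes. Prx, which encodes periaxin, fell from 124.24 and 141.24 FPKM to 1.93 and 2.04 (log2 -6.01, edgeR adjusted p = 6.37e-08), and Cadm1, a Necl gene like Cadm4, was the 1 that rose, from 39.33 and 39.70 to 61.81 and 71.66 (log2 0.81, edgeR adjusted p = 0.000428).

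**Figure D4:**
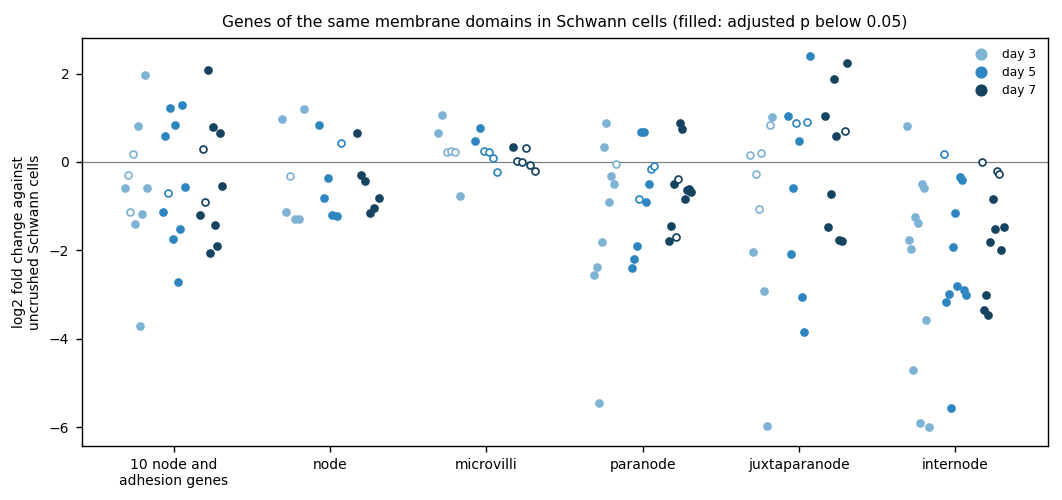
Log2 change against uncrushed Schwann cells (vertical axis, edgeR) of the 10 genes and of 5 lists of genes of the same domains, at days 3, 5 and 7 from light to dark. Each point is 1 gene, filled points passed an adjusted p of 0.05, and genes with a group at or under the floor of 3 counts are left out. The internodal points other than Cadm1 lie below 0, the microvillar points lie on both sides with Slc9a3r2 lowest at -0.77, and the 10 genes spread on both sides.

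Compared as levels per length, the 8 groups gave different orders for different genes. Uncrushed Schwann cells stood highest for Gldn, Ank3, Epb41l3 and Slc9a3r1, Schwann cells at day 3 for Nrcam, at day 5 for Cadm4 and Ezr, and at day 7 for Cntnap2, while whole nerve stood highest for Nfasc (uncrushed) and Cntn2 (day 7). Of the 70 pairs of neighbours in these orders, 28 overlapped, 6 of 7 for Cntn2, 5 for Epb41l3 and 4 for Slc9a3r1. For Cntn2 the first place of whole nerve at day 7 overlapped with that of uncrushed whole nerve, and for Ezr Schwann cells at days 5 and 7 overlapped. Across the 8 group means of log2(FPKM + 1), the gene with the pattern most like that of Nfasc among 14515 compared was P2ry2 (Pearson r = 0.99), for Nrcam it was Haus3 (r = 0.982), for Epb41l3 Dvl1 (r = 0.988), for Cadm4 Tctn1 (r = 0.988) and for Cntnap2 Nt5m (r = 0.970). For Gldn it was LOC103693768 (r = 0.994), for Ank3 LOC102546693 (r = 0.992), for Ezr LOC102552166 (r = 0.992) and for Slc9a3r1 Nxph1 (r = 0.983). For Cntn2, near the floor of detection, it was Calml4 (r = 0.990) among 14516 compared. These are descriptions over 8 points that share their libraries, and each is the highest of all values computed for its gene. In the deposited table of modules of co-expression, which covers 6274 genes, 7 of the 10 genes had an entry. Nfasc, Ank3 and Epb41l3, the genes that declined through the week, shared the module numbered 1, which has 54 genes, while Gldn, Nrcam, Cadm4 and Ezr each stood in another. The study built the modules from its purified Schwann cells, so a shared module is not separate evidence of a shared pattern.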

How the data were processed

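Alignment by the authors used STAR and the build Rnor_6.0, and RSEM gave the expected counts per gene. These were deposited unnormalized, per library and as 1 matrix. The deposited FPKM is scaled by the authors to effective length and library size, and the deposited TPM, not tested here, to a fixed total. A further deposited table was taken as Cufflinks FPKM of Schwann cells. Its columns name days but no tissue or library, and the tissue was inferred from the study's module analysis of purified cells. Lengths and module numbers came with these tables. cDNA was amplified without molecular identifiers, and strand was not given in the sources used here.

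Expected counts were rounded and tested with edgeR 4.0.16 (R 4.3.3), with filterByExpr, TMM and a quasi-likelihood fit of the 8 Schwann cell libraries, the 8 whole nerve libraries or all 16, and Benjamini-Hochberg adjustment over 14961, 15831 or 16829 genes. A call is an adjusted p under 0.05. All 10 genes passed the filter in every comparison. Standard errors come from the fit. Fits were tested on simulated data. Alternatives were DESeq2 1.42.0, upper quartile scaling, other filters, other sets of libraries, a replicate block, each library left out and, added after the data were seen, Cufflinks FPKM.

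The 10 genes, the lists and the tests were chosen with earlier results of these data known. All 10 are named; of each related list, the gene of smallest adjusted p among risers and among fallers in Schwann cells at day 3 is named, and Cntn1 was added after its values were seen. For likeness, the gene with the highest Pearson r was taken. Replicates of a group differed beyond sampling noise (chi-square per degree of freedom 8.56 to 30.1).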

Additional observations from a re-analysis of the deposited data

Results flagged for a closer look

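Results were marked for a closer look where the response to crush differed between Schwann cells and whole nerve by the interaction test of edgeR. Values are log2 differences of the response, Schwann cells minus whole nerve. At day 3 they were 1.70 for Nfasc, 1.47 for Cntnap2, 1.12 for Cadm4, 0.99 for Gldn, 0.98 for Nrcam and -0.74 for Epb41l3. At day 5 they were 2.33 for Nfasc, 1.38 for Cntnap2, 1.05 for Nrcam, 0.90 for Cadm4, 0.80 for Gldn, -0.86 for Ank3 and -0.94 for Epb41l3. At day 7 they were 1.90 for Cntnap2, 1.47 for Nrcam, 1.28 for Nfasc, -0.89 for Ank3 and -1.23 for Epb41l3.

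The values of Nfasc and Nrcam on all 3 days, of Gldn at day 3, of Ank3 and Epb41l3 at days 5 and 7 and of Cntnap2 at day 7 were called in every alternative run. Others were lost when 1 library was left out. At day 3 these were Epb41l3 without either whole nerve day 3 library (-0.74 and -0.75), Schwann cell day 3 replicate 2 (-0.62), uncrushed Schwann cell replicate 1 (-0.61) or uncrushed whole nerve replicate 1 (-0.63). Cadm4 at day 3 was lost without whole nerve day 3 replicate 1 (0.86) or uncrushed whole nerve replicate 2 (0.97). Cntnap2 at day 3 was lost without Schwann cell day 3 replicate 1 (1.20), uncrushed Schwann cell replicate 1 (1.09), whole nerve day 3 replicate 2 (1.13) or uncrushed whole nerve replicate 2 (1.28). At day 5 Gldn was lost without Schwann cell day 5 replicate 2 (0.50), uncrushed Schwann cell replicate 1 (0.77), whole nerve day 5 replicate 1 (0.72) or uncrushed whole nerve replicate 2 (0.72). Cadm4 at day 5 was lost without Schwann cell day 5 replicate 1 (0.76), either uncrushed Schwann cell library (0.91 and 0.90), either whole nerve day 5 library (0.82 and 1.00) or uncrushed whole nerve replicate 2 (0.74). Cntnap2 at day 5 was lost under DESeq2 (1.36) and without either Schwann cell day 5 library (1.30 and 1.46), uncrushed Schwann cell replicate 1 (1.00), whole nerve day 5 replicate 2 (1.20) or uncrushed whole nerve replicate 2 (1.18).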

How the results depend on the processing

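Of the comparisons of single genes, 102 were called and 82 stayed called in every alternative. Among 1125 alternative values of called comparisons, 59 lost the call and 0 reversed. Among 531 of the 48 not called, 51 reversed and 35 gained a call. The count of called genes stayed within 1.5 times its value except when single libraries were left out. For Schwann cells against whole nerve at day 7 it then ranged from 4 to 7, lowest without whole nerve day 7 replicate 1, and for the interaction at day 5 from 4 to 7, lowest without uncrushed Schwann cell replicate 1 or uncrushed whole nerve replicate 2.

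Most reversals were near 0 or in low counts, but Cadm4 in whole nerve at day 7 went from 0.05 to -0.28 without day 7 replicate 2. With upper quartile scaling Ezr between day 7 and day 3 became 0.0281 in Schwann cells and 0.0341 in whole nerve, Nrcam uncrushed between tissues 0.0566, and Slc9a3r1 between tissues 0.0880, 0.0310 and 0.0275 at days 3, 5 and 7. DESeq2 gave 0.0141 for Nrcam uncrushed and 0.0406 for Slc9a3r1 at day 3. For Ezr in whole nerve between day 7 and day 3, a minimum of 10 counts and a fit of the 2 groups gave 0.0115 and 0.0116 and a fit of all 16 libraries gave 0.0228, and for Slc9a3r1 at day 3 no filter gave 0.0180 and a fit of the 2 groups 0.0425. Cufflinks FPKM, taken relative to the median gene of its table, moved 19 of 21 Schwann cell values beyond the replicate SD and reversed none, while on its plain ratio Cadm4 at day 3 was 0.07 against -0.30. The causes were not tested.

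With single libraries left out, log2 values ranged as follows. In Schwann cells against uncrushed, Cntnap2 at day 3 ranged from -0.21 to 0.63, and Cntn2 from -1.26 to 0.22 at day 5 and from -1.44 to 0.0169 at day 7. Between day 7 and day 3, Slc9a3r1 ranged from -0.0595 to 0.153 and Ezr from -0.0458 to 0.00256 in Schwann cells, and Ezr from -0.10 to 0.10 and Epb41l3 from -0.418 to 0.0635 in whole nerve. In whole nerve against uncrushed, Nrcam at day 5 ranged from -0.0326 to 0.274, and at day 7 Cadm4 from -0.28 to 0.36, Cntn2 from -0.52 to 0.31 and Cntnap2 from -0.14 to 0.28. Between tissues, uncrushed Nrcam ranged from -0.15 to 0.13, uncrushed Slc9a3r1 from -0.10 to 0.30 and Slc9a3r1 at day 3 from -0.126 to 0.0936. For the interaction, Ank3 at day 3 ranged from -0.0418 to 0.379, Gldn at day 7 from -0.0500 to 0.366 and Cadm4 at day 7 from -0.15 to 0.48. Cntn2 ranged from -0.88 to 0.57, -0.49 to 1.02 and -1.36 to 0.0917 at days 3, 5 and 7, Ezr from -0.00507 to 0.180, -0.0309 to 0.178 and -0.0336 to 0.144, and Slc9a3r1 from -0.28 to 0.11, -0.394 to 0.00167 and -0.387 to 0.00911.

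Replicate numbers were shared between groups, but the deviations of same-numbered libraries correlated at only -0.06 to 0.18 within a tissue, and the numbers were not taken to pair the samples. A replicate block lost no call. It called 7 genes in whole nerve at day 5 and 7 at day 7, where the fit without it called 5 and 6, adding Ank3 on both days and Cadm4 at day 5. Depth limits Cntn2 and Cntnap2 most, with 6 to 193 counts per library. With 2 libraries a group, leaving 1 out assumes that the lone library varies like the other groups.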
